A study of Mus musculus with 4 samples.

Results

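Open chromatin over the ends of genes was examined in mouse CD4+ T cells that were being induced to become regulatory T cells with or without IL-4. The gene-end regions are stretches of open chromatin whose centre lay in the annotated 3′ untranslated region (3′ UTR) of a protein-coding transcript and over 2.5 kb from every annotated transcript start site. They were found by merging the ATAC-seq peaks of the 4 libraries wherever peaks shared at least 1 base and by keeping the merged regions that had a peak in at least 2 libraries. Of 93503 merged regions on the assembled chromosomes, 73340 had a peak in at least 2 libraries, and 876 of these (1.19%) were gene-end regions, in the 3′ UTRs of 816 genes. The peak calls therefore chose the members, and their number and the calls themselves are given as a description. A further 287 3′ UTR regions had a peak in 1 library and were left out.

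ATAC-seq uses a transposase that inserts sequencing adapters into DNA not covered by nucleosomes, so that open stretches appear as peaks. Sorted naive CD4+ T cells from spleens of male wild-type C57BL/6 mice aged 7 weeks were activated for 48 h with plate-bound anti-CD3 at 5 µg/ml and with 1 µg/ml of anti-CD28, in medium that held 5 ng/ml of TGF-β1 and 10 ng/ml of IL-2. All 4 libraries share these conditions: iTreg+PBS (2 libraries) received no IL-4, and iTreg+IL-4 (2 libraries) received 15 ng/ml of IL-4. The cells of a library were pooled, so each library averages over cells at different stages of polarization, and p-values measure the spread between these libraries. The lists held between 56552 peaks (iTreg+PBS replicate 2) and 78548 peaks (iTreg+IL-4 replicate 1) on the assembled chromosomes. They hold no read numbers, so depth is not known for any library, and where a peak is missing the enrichment may only have stayed under the threshold of the caller. Of the T cell markers examined, Cd3e, Cd3d, Cd3g, Cd4, Cd28, Thy1 and Lck had a peak within 1 kb of a start site in all 4 libraries. Cd79a, Lyz2, Csf1r, Adgre1, Ncr1 and Hbb-bs, markers of B, myeloid, natural killer and erythroid cells, had such a peak in 0 libraries, whereas Pax5, Cd14, Cd8b1, Gata1 and Epor had it in all 4. Of the other markers of these lineages, Ms4a1, Cd22 and Itgam had it in 3 libraries, Klrd1 and Cd8a in 2 and Klrb1c in 1.

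The 3′ UTR is the part of a messenger RNA that follows the stop codon. In the RNA it carries binding sites for microRNAs and RNA-binding proteins and the signal at which the transcript is cut and polyadenylated. In the DNA the same stretch can serve as an enhancer or hold sites of the insulator protein CTCF, a role that does not pass through the RNA. In T cells, AP-1, ETS, RUNX, NFAT and TCF factors occupy much of the distal open chromatin, and IL-4 acts through STAT6, which binds palindromes of TTC and GAA.

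The sequences that carry the comparisons below are short matches of these motifs in the 200 bases around the centre of a region, read from GRCm38 (mm10). The motif of STAT6 was searched as TTCNNNNGAA, where N is any base, and gene-end regions that held it and ranked higher with IL-4 are shown on the strand of their gene, with the motif in capitals and its coordinates.
Vmn2r97 (chr17:18957930-18957939, plus strand): tgcaaacTTCCTGAGAAaaaccac
Vmn2r95 (chr17:18458381-18458390, plus strand): tgcaaacTTCCTGAGAAaaaccac
Thsd7a (chr6:12315487-12315496, minus strand): cacctctTTCTTGTGAAaaagaaa
Pex26 (chr6:121194795-121194804, plus strand): acagcttTTCTCTAGAAgaggaaa
Polr3g (chr13:81675640-81675649, minus strand): atttctcTTCCCTGGAAcattgtt
Samd7 (chr3:30765599-30765608, plus strand): accaaggTTCTGAAGAActgcccc
Bmp10 (chr6:87436800-87436809, plus strand): gttacacTTCTTCTGAAggtgaga
The matches of Vmn2r97 and Vmn2r95 were identical over all 24 bases shown, and the region of Vmn2r97 has a near-identical copy over that of Vmn2r95, so that these regions share a sequence.

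CTCF was searched as CCANNAGNNGGC, and the matches in named gene-end regions are shown on the strand that holds these letters, in capitals.
Fbxo46 (chr7:19137582-19137593, plus strand): gacccaCCAGCAGGGGGCagacgg
Gosr2 (chr11:103677195-103677206, plus strand): cctcctCCACTAGAGGGCatccca
Ssr3 (chr3:65380335-65380346, minus strand): aacttgCCACTAGGTGGCggtgcc
Ptges (chr2:30891168-30891179, plus strand): aactcaCCACCAGAGGGCagtgct
Zbtb7b (chr3:89378474-89378485, plus strand): gcatggCCACCAGATGGCgctagc

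AP-1, a dimer of Fos and Jun proteins that T cell activation induces, was searched as TGANTCA, and the matches in the 3′ UTRs of T cell genes are shown on the strand of the gene.
Zbtb7b (chr3:89378567-89378573, minus strand): tgctgccccTGACTCAcgccgccc
Il2ra (chr2:11691361-11691367, plus strand): agatgagtTGAGTCAgattctcat
Foxp3 (chrX:7593461-7593467, plus strand): agtcctacTGACTCAcaccccaaa
Bach2 (chr4:32582393-32582399, plus strand): gaagttgtTGATTCAtgcagtaga

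Gene ends were as densely covered by open regions as other exons and more densely than introns. Outside 2.5 kb of start sites, 3′ UTRs held 35.1 regions per Mb over 24.98 Mb. Coding exons held 36.6, other exons (5′ UTRs and noncoding transcripts) 33.5, introns 27.2 and intergenic DNA 15.5 regions per Mb, and the stretches within 2.5 kb of start sites held 73.5. The share of gene-end regions called in all 4 libraries was 58.3% (511 of 876), with a 95% Wilson interval of 55 to 61.6% that covers counting error only. It was 65.1% over all regions called in at least 2 libraries and 58.4% over the other regions far from start sites.

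**Figure D1:**
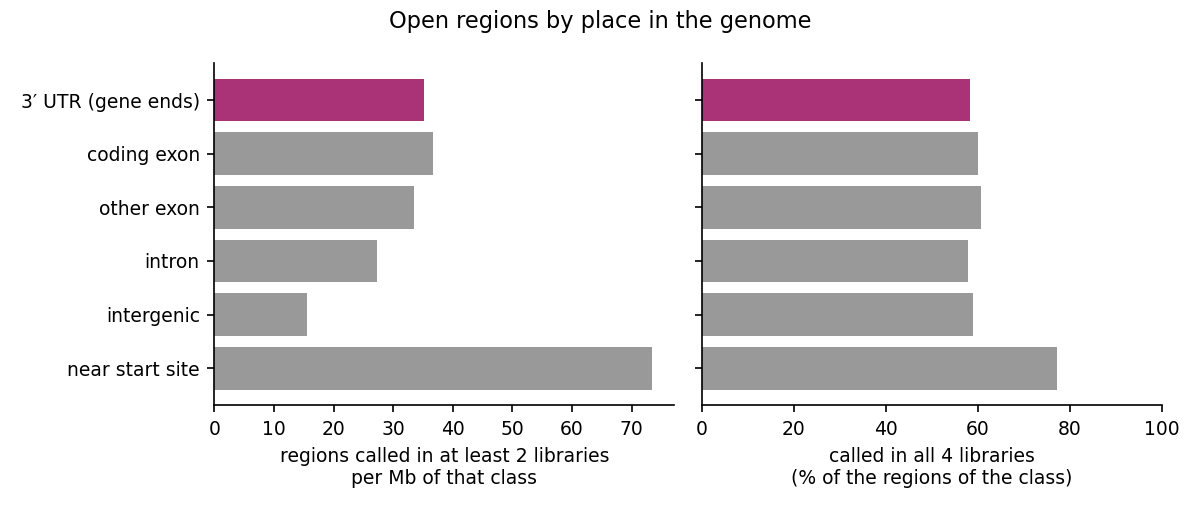
Bars give, for each class of regions called in at least 2 libraries, the number per Mb of that class (left) and the percentage called in all 4 libraries (right). The gene-end regions (purple) stand at 35.1 per Mb, close to the other exonic classes, and at 58.3% called in all 4 libraries, against 77.2% near start sites.

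Along the 3′ UTR, the regions were spread over the whole length, with fewer per base close to the transcript end. The median relative position of their centres was 0.532, with 0 at the stop codon and 1 at the transcript end, at a median of 1213.5 bases from the stop codon and 1048 bases from the end. With the UTR cut into 10 equal bins from the stop codon on, bins 1 and 10 held 8.22% and 7.88% of the centres, against 9.2% and 10.4% of the eligible bases, whereas bin 7 held 13.1% of the centres and 10.4% of the bases. By distance from the stop codon, the density of regions varied little, between 34.7 and 38.7 regions per Mb over 6 bins. By distance from the transcript end, it was 31 regions per Mb in the last 250 bases, 44.7 between 500 and 1000 bases and 21.2 beyond 4000 bases. Of the 876 regions, 696 (79.5%) lay wholly in 3′ UTR sequence, 105 (12%) also held the stop codon and 101 (11.5%) held the transcript end. At 94 regions (10.7%) a gene on the opposite strand also covered the centre, and at 18 the centre was coding in another transcript.

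**Figure D2:**
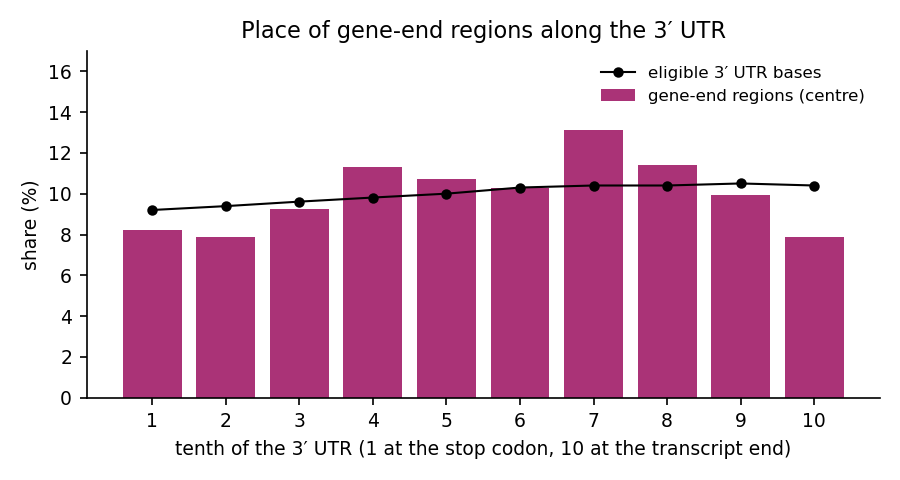
Bars give the percentage of the 876 gene-end regions whose centre fell in each of 10 equal bins of the 3′ UTR (1 at the stop codon), and the line gives the percentage of eligible 3′ UTR bases in that bin. Bin 7 holds 13.1% of the centres and bin 10 holds 7.88%, while the bases rise slowly from 9.2% to 10.5%.

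The polyadenylation signal AATAAA, searched over the whole region, was no more frequent on the strand of the gene than on the other. It stood on the strand of the gene in 167 regions (19.1%) and on the other strand in 181 (20.7%). Among the 101 regions that held the transcript end, it stood on the strand of the gene in 60 (59.4%) and on the other strand in 27 (26.7%). Among the other 775 these numbers were 107 (13.8%) and 154 (19.9%).

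Genes with a gene-end region had long 3′ UTRs and mostly open promoters. The median length of the longest annotated 3′ UTR was 2659.5 bases in these 816 genes and 1220 in the 14755 other genes with eligible 3′ UTR bases. A longer UTR offers more bases for a region, so genes of like UTR length were also set side by side. A peak within 1 kb of a start site was called in all 4 libraries for 679 of the 816 genes (83.2%) and for 61.5% of the other genes. Among genes with a UTR of 4000 bases or more, the shares were 88.8% of 214 genes and 65.4% of 1216 genes. They were 86.5% of 326 and 68.5% of 3371 genes for UTRs of 2000 to 4000 bases, and 81% of 179 and 68.8% of 3798 genes for 1000 to 2000 bases. For UTRs of 500 to 1000 bases the shares were close, at 62.5% of 64 and 62% of 2703 genes, and under 500 bases they were 66.7% of 33 and 46% of 3667 genes. The differences between these shares were not tested.

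A gene-end region also stood over 84 genes (10.3%) with no promoter peak in any library, as in 31.7% of the other genes. These genes held 87 regions, 47 of them called in all 4 libraries, and another gene covered the centre of 13. Pde6h, an inhibitory subunit of the phosphodiesterase of cone photoreceptors, held 3 such regions. Its region nearest to the stop codon had −log10 q of 134 and 46.5 without IL-4 (replicates 1 and 2, the order used throughout) and of 98.7 and 77.5 with IL-4. It thus stood high in every library of a cell type in which the promoter of the gene had no peak. Vmn2r97, Thsd7a, Tmem72 and Ltb4r1, described below, were further genes of this kind.

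Most genes (760) held 1 gene-end region, 52 held 2, and 4 genes held 3, namely Bcl2l11, Il2ra, Ints7 and Pde6h. Bcl2l11 encodes Bim, a protein that drives the death of activated T cells. Its first region (chr2:128158783-128159465) had −log10 q of 47.5 and 22.9 without IL-4 and of 72.9 and 58.2 with IL-4. Its second region (chr2:128159759-128160160) had −log10 q of 25.1 and 8.21 without and of 43.1 and 24.1 with IL-4, and its last region lacked a peak in iTreg+PBS replicate 2. In Ints7, which encodes a subunit of the Integrator complex, no region was called in iTreg+IL-4 replicate 2 and −log10 q stayed between 2.09 and 6.49.

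Gene-end regions were narrower than those of each other class in 4 of 4 libraries, while their median rank lay within a few points of that of the other distal classes. Ranks were used in place of heights because the depth is unknown: the rank of a region is the percentage of the 47710 regions called in all 4 libraries that had a lower −log10 q in the same library. The median rank of the 511 shared gene-end regions was 40.2 and 38.3 in iTreg+PBS replicates 1 and 2 and 40 and 41.7 in iTreg+IL-4 replicates 1 and 2. Within each library this median was compared with that of other classes by an exact two-sided sign-flip permutation test over the 4 libraries, whose smallest p is 0.13, in a family of 10 comparisons. Against introns the mean difference was 0.32 ± 1 percentage points (SD, n = 4 libraries, p = 0.875, adjusted p = 0.875), and against coding exons it was 1.32 ± 1.34 (exact p = 0.25, adjusted p = 0.312). Against intergenic regions it was -0.46 ± 1.82 (exact p = 0.625, adjusted p = 0.694). Gene ends ranked below other exons in 4 of 4 libraries, by -1.51 ± 0.715 points (exact p = 0.13, adjusted p = 0.179). Near start sites the ranks were higher in all 4 libraries, with gene ends at -29.4 ± 1.9 points (exact p = 0.13, adjusted p = 0.179). The median width of a shared gene-end peak was 474, 361, 501 and 453 bases in the same order of libraries. It lay below that of intronic peaks in 4 of 4 libraries, by a mean of -22.3 ± 5.91 bases (exact p = 0.13, adjusted p = 0.179). A test over 4 libraries cannot pass 0.05, so these differences are given with their direction only. The same shared regions entered in every library, so a direction seen in 4 of 4 libraries does not measure the spread between regions.

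The gene-end regions of highest rank belonged to genes of different functions. The first was Lars2, which encodes the mitochondrial leucyl-tRNA synthetase, at chr9:123461798-123462187 on the plus strand. Its peaks had −log10 q of 2161 and 1104 without and 1974 and 1396 with IL-4, and its rank was at least 99.9 in every library. This region matched 4 other places in GRCm38 at 95% identity or more over at least 100 bases, the longest over 236 bases, at 98.3% identity, and whether reads of such copies were told apart from its own was not tested. In all, 44 of the 876 regions (5.02%) had such a copy.

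After Lars2 came 4930595D18Rik, whose region covered both its stop codon and its end, and St3gal2, a sialyltransferase. The mean ranks of both were 91.2. Heg1, Zbtb46 (a zinc finger factor of dendritic cells), the agouti gene a, Polr1a (the largest subunit of RNA polymerase I), Cd164 and 9930022D16Rik were also among the 10 regions of highest mean rank, between 85.9 and 89.4. None of these 10 regions differed in mean rank between conditions by more than 4.11 points.

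Region widths ran from 167 to 1968 bases with a median of 479. The widest lay over the end of Ccr7, the chemokine receptor that guides naive T cells into lymph nodes, at chr11:99143219-99145186. It held the stop codon and the transcript end, and 38.7% of it was 3′ UTR. Peaks there had −log10 q of 69.9 and 25.3 without and 85.2 and 60.4 with IL-4. Its rank was 55.4 and 56.6 without and 62.2 and 62.1 with IL-4, without overlap between the conditions. Clstn1, Scimp (an adaptor of immune signalling), Ltb4r1 (a leukotriene B4 receptor) and Gm12216 followed with widths between 1427 and 1759 bases.

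Genes of the T cell program were examined by lists that were chosen with earlier results of these data known. Of the genes with eligible 3′ UTR bases, a gene-end region stood over 5 of 24 genes of regulatory T cells and TGF-β signalling (20.8%), 2 of 16 Th2 genes (12.5%), 5 of 37 other transcription factors of T cells (13.5%) and 6 of 21 genes of T cell receptor signalling and surface markers (28.6%). It stood over 0 of 21 histone deacetylases and other chromatin genes and over 1 of 22 genes of RNA decay and microRNA function (4.55%). Over all 15571 genes with eligible bases the share was 5.24% (816 genes). UTR length differs between genes and was not matched here.

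In the regulatory T cell list, the members were Foxp3, Il2ra, Ikzf2, Tgfbr2 and Smurf2. Foxp3, the lineage factor of regulatory T cells, held its region at chrX:7593201-7593621 on the plus strand, 367 bases past the stop codon. Its −log10 q was 12.9 in iTreg+PBS replicate 1 and 22.6 and 8.97 in the iTreg+IL-4 libraries, and no peak was called in iTreg+PBS replicate 2. The libraries with a peak stood at the 32.1, 49.6 and 25.1 percentile of their own lists, and the 2 conditions overlapped. The gene Gm36995 covers the same stretch on the opposite strand, and ATAC-seq does not tell the strands apart.

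Il2ra, the α chain of the IL-2 receptor, held 3 regions along its UTR. The middle one (chr2:11691205-11691645) was called in all 4 libraries, with −log10 q of 31.3 and 4.24 without and of 19.5 and 17.3 with IL-4, and the conditions overlapped. The first (chr2:11690392-11690606) lacked a peak in iTreg+PBS replicate 2 and the third (chr2:11692423-11692810) in iTreg+IL-4 replicate 2. Ikzf2, which encodes Helios, had −log10 q of 19 and 3.67 without and of 33.1 and 14.8 with IL-4. Its rank was 18 and 4.5 without and 34.8 and 19.3 with IL-4, higher in both iTreg+IL-4 libraries.

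Tgfbr2, the type II receptor of TGF-β, had a peak in each iTreg+PBS library (−log10 q of 4.92 and 2.75) and none with IL-4. These values stood at the 10.1 and 4.15 percentile of their lists, close to the caller's threshold. Smurf2, a ubiquitin ligase that acts on TGF-β receptors and Smads, was called in replicate 1 of each condition.

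Of the Th2 list, Il4ra, the α chain of the IL-4 receptor, had a peak in each iTreg+IL-4 library and none without IL-4. Its −log10 q was 6.36 and 5.06, at the 17.5 and 12 percentile of the lists, while its heights of 109 and 80 were well above the median height of gene-end peaks in those libraries (48 and 42). Irf4, a factor that Th2 and regulatory T cells both need, was called in replicate 1 of each condition.

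Among the transcription factors, Zbtb7b, which encodes the CD4 lineage factor ThPOK, had −log10 q of 107 and 44.5 without and of 77.5 and 78.6 with IL-4, and its ranks overlapped. Ikzf3, which encodes Aiolos, had −log10 q of 69.3 and 16.5 without and of 90.9 and 56.1 with IL-4. Its rank was 55.1 and 44 against 63.8 and 60.1, without overlap. Bach2 and Runx3 lacked a peak in iTreg+PBS replicate 2, and Nfatc1 was called in all 4 libraries with −log10 q below 10.

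In the T cell receptor list, Cd44, Cd28 and Cd69 were among the regions called in all 4 libraries. Cd69, an early activation marker, had −log10 q of 33.9 and 14 without and of 11.4 and 23.5 with IL-4. Its rank was 33.7 and 39 without and 8.65 and 33.4 with IL-4, lower in both iTreg+IL-4 libraries but by little in replicate 2. Cd44 (the adhesion receptor that rises on activated cells) ranked at 71.7 and 78.4 without and at 70.3 and 70.5 with IL-4, also without overlap. Cd28, the costimulatory receptor, ranked at 60.7 and 58.8 without and at 60.4 and 46.9 with IL-4, and the conditions overlapped. Cd5, an inhibitory surface receptor, lacked a peak in iTreg+PBS replicate 2. In the list of RNA genes, Tnrc6b, a partner of Argonaute proteins in silencing by microRNAs, ranked at 42.2 and 49.8 without and at 52.3 and 53.6 with IL-4.

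**Figure D3:**
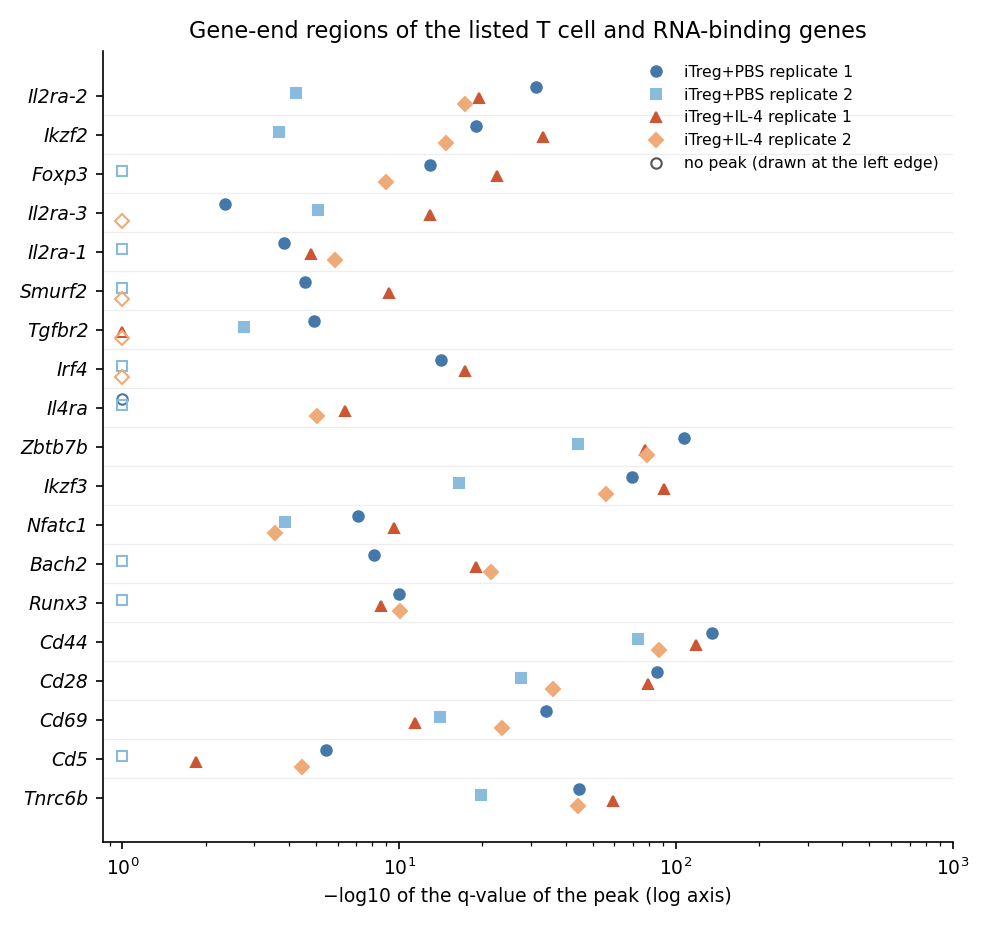
Points give the −log10 q of the peak in each of the 4 libraries (log axis) for the gene-end regions of the listed genes, and open symbols at the left edge mark libraries with no peak. Cd44 reaches 135 in iTreg+PBS replicate 1, and Il4ra and Tgfbr2 are the regions with open symbols for both libraries of a condition.

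IL-4 was compared with PBS first by the calls. Of the 876 gene-end regions, 34 (3.88%, 95% Wilson interval 2.79 to 5.37%) had a peak in each iTreg+IL-4 library and none in the iTreg+PBS libraries. This was so for 3.32% of all regions called in at least 2 libraries, a share within that interval. In the other direction, 5 regions (0.571%, interval 0.244 to 1.33%) had a peak in both iTreg+PBS libraries only, against 0.89% of all regions. Both shares thus lay near the background. iTreg+PBS replicate 2 had the shortest list and a peak at 65.3% of the gene-end regions, against 93% in iTreg+PBS replicate 1 and 95.5% and 83.9% in the iTreg+IL-4 libraries. Without this library, 48 regions were called only with IL-4, and without iTreg+PBS replicate 1 the count was 178. When each list was cut to its 56552 peaks of highest −log10 q, 17 regions were called only with IL-4 and 10 only without it. The shares over all regions were not computed under these settings, so these counts are descriptions only.

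The strongest regions called only with IL-4 were those of Zbtb37, a zinc finger protein, with −log10 q of 28.6 and 24.3, and Virma, a subunit of the enzyme that writes N6-methyladenosine into mRNA, with 21.1 and 20.1. Both held the STAT motif, as did 0 of the other 32. These 2 were 3.57% of the 56 gene-end regions with the motif, and 3.9% of those without it were called only with IL-4. In other distal regions the shares were 8.4% and 3.66%. A share that rests on 2 regions is imprecise, and whether gene ends differ here from other distal regions was not tested. Fbxo46 (an F-box protein), Gosr2 (a SNARE of the Golgi) and Ssr3 (a subunit of the translocon-associated complex) had −log10 q between 10.4 and 19.4, and each held the CTCF match shown above. Of the 34 regions, 6 held a CTCF match, which stood in 11.8% of all gene-end regions. Those 6 were 5.83% of the regions with the match, and 3.62% of the regions without it were called only with IL-4, a difference that was not tested. In other distal regions these shares were 4.06% with and 3.96% without the CTCF match. The region of Gosr2 has a near-identical copy on chromosome 2. Btg1, which restrains cell division, and Arl4c, a small GTPase, had heights of 162 and 145 and of 79 and 79 at −log10 q of 14.6 and 11.6 and of 9.31 and 14.2. These heights were far above those of Zbtb37 (47 and 38), whose −log10 q was larger. Auh, Dnajb2 and Apcdd1 completed the 10, each with a −log10 q below 15.

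The 5 regions called only without IL-4 were those of Dnajb12, Cacnb1, Ptges, Tgfbr2 and Cluh. Dnajb12, a chaperone of the endoplasmic reticulum, had −log10 q of 16.7 and 8.6, and Cacnb1, a subunit of voltage-gated calcium channels, 15.4 and 7.12. Ptges, a synthase of prostaglandin E2, had 8.09 and 6.28 and held the CTCF match shown above. Cluh, which binds mRNAs of mitochondrial proteins, had 2.34 and 4.55.

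Ranks compare the regions that all 4 libraries called. The median rank of the 511 shared gene-end regions was 39.3 ± 1.32 without and 40.8 ± 1.19 with IL-4 (SD, n = 2 each), a difference of 1.55 points that was within the spread of the libraries (exact two-sided permutation test, p = 0.667, smallest p 0.33). By peak height the difference was -0.05 (exact permutation p = 1). Ranked among all peaks of each list it was 5.76 points (exact permutation p = 0.667), against 3.8 points for all regions called in all 4 libraries. The difference of single regions ran from -22.3 to 40.9 points, with quartiles at -3.34 and 5.78, and 283 of the 511 regions (55.4%) differed by less than 5 points.

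In 91 of the 511 regions (17.8%, interval 14.7 to 21.4%), both iTreg+IL-4 ranks were above both iTreg+PBS ranks. This was so for 14.4% of all regions called in all 4 libraries and for 15% of the other regions far from start sites. Both iTreg+IL-4 ranks were below both iTreg+PBS ranks in 63 regions (12.3%, interval 9.76 to 15.5%), against 12.7% of all regions. When same-numbered libraries were compared as pairs in a replicate block, 166 regions (32.5%) were higher and 132 (25.8%) lower with IL-4 in both pairs, against 27.8% and 28.2% of all regions called in all 4 libraries. When regions were ranked among all peaks of each list, 126 (24.7%) were higher and 21 (4.11%) lower with IL-4, against 19.8% and 5.17% of all regions, so that the split of the directions depends on what the ranks are taken among.

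The largest difference was that of Rngtt, the enzyme that caps messenger RNA, at chr4:33500892-33501354. The −log10 q was 14.7 and 3.56 without and 47.8 and 42.6 with IL-4. Its rank was 12.4 and 3.84 without and 45.8 and 52.3 with IL-4, a difference of 40.9 points that was far larger than the spread within either condition. Bmp2k, a kinase, ranked at 39.6 and 52.9 without and at 72.8 and 78.7 with IL-4, and Paqr3 covers its region on the opposite strand. Sv2c, a glycoprotein of synaptic vesicles, ranked at 10.3 and 17.9 against 32.5 and 41.8.

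Vmn2r97, a vomeronasal receptor, and Thsd7a, a membrane protein with thrombospondin domains, completed the 5 largest differences upward, and neither gene had a promoter peak in any library. The region of Vmn2r97 lay at the very end of a 3′ UTR of 10016 bases and ranked at 8.82 and 12.3 without and at 38.4 and 47.8 with IL-4. Thsd7a ranked at 11.2 and 21.9 without and at 46.2 and 31.4 with IL-4. Both held the STAT motif.

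The largest differences downward were smaller. Tmem72, a transmembrane protein gene with no promoter peak, ranked at 52.8 and 52.7 without and at 39.4 and 21.6 with IL-4. Its −log10 q was 63.8 and 21.9 without and 38.5 and 16 with IL-4, and its region held an AP-1 match. Adam22, which encodes a metalloprotease-like membrane receptor, ranked at 22.8 and 21.9 against 4.24 and 0.555. Btbd7, Sestd1 and Anks1b followed with differences of -19.4, -17.9 and -17.7 points.

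**Figure D4:**
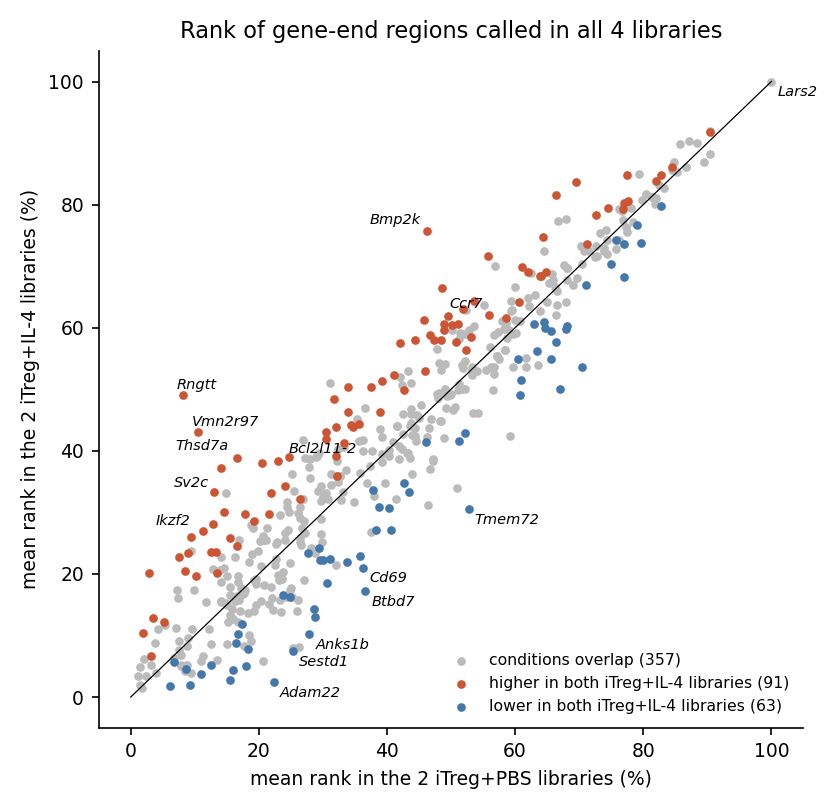
Each point is 1 of the 511 gene-end regions called in all 4 libraries, with its mean rank in the 2 iTreg+PBS libraries on the x axis and in the 2 iTreg+IL-4 libraries on the y axis. Most points lie near the diagonal, 91 (orange) ranked higher and 63 (blue) lower in both iTreg+IL-4 libraries, and Rngtt lies farthest above the line.

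The sequence under gene-end regions resembled that under other distal regions in GC content and held fewer repeats than that in introns and intergenic regions. The median GC content of the central 200 bases was 49%, against 48% in the other regions far from start sites, 55.5% in coding exons and 57% near start sites. Repeats, as RefSeq masks them, filled 11.9% of these bases on average, against 18.7% in introns, 24.7% in intergenic regions, 11% near start sites and 5.15% in coding exons.

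CTCF matches were more frequent at gene ends than in any other class. They stood in 103 of the 876 regions (11.8%, interval 9.79 to 14.1%), against 7.19% of intronic, 9.01% of intergenic and 7% of coding regions. Of the 103 regions, 58 held the match on the strand of the gene and 46 on the other, and in 63 (61.2%) it lay within 50 bases of the centre. AP-1 matches also stood in 103 regions (11.8%), against 15.6% of the other distal regions, 16.3% of introns and 8.43% of coding exons. For the factors of T cells the shares were close to those of the other distal regions. RUNX, whose members steer the CD4 and CD8 lineages, was searched as TGTGGTT and stood in 10% of gene-end and 10.3% of other distal regions. The ETS core ACAGGAA, bound by factors such as Ets1, stood in 12.4% and 11.2%. NFAT factors are switched on by calcium, and their letters TGGAAA stood in 17.6% and 18.9%. Of GATA factors, GATA3 directs Th2 cells, and AGATAA stood in 7.99% and 9.12%. CTTTGA, the core of TCF sites, stood in 13.7% and 15.8%. IRF factors were searched as GAAANNGAAA, found in 5.82% and 5.73%. The motif of NF-kB, GGGANNTTCC, was rare at 1.26% and 1.19%. A second form of the ETS site with more GC, CCGGAAG, stood in 2.63% and 2.17%. All letters were searched on both strands, and matches of different motifs may overlap. Regions are not replicates, so these shares were not tested.

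Gene-end regions with an AP-1 match ranked above those without it in 4 of 4 libraries. The medians with a match were 47.5 and 42.6 in the iTreg+PBS libraries and 52.1 and 44.3 in the iTreg+IL-4 libraries, against 38.4, 37.6, 38.5 and 41.5 without. The mean difference was 7.61 ± 4.74 points (SD, n = 4, exact sign-flip p = 0.13, adjusted p = 0.25 over 12 motifs). TCF matches went the same way by 3.8 ± 0.61 points, and RUNX, GATA and ETS (ACAGGAA) matches the opposite way, by -6.81 ± 1.58, -5.77 ± 0.487 and -5.08 ± 1.24 points, each in 4 of 4 libraries. For NF-kB, with only 5 shared regions that held a match, the difference was -12.3 ± 6.84 points, also in 4 of 4 libraries. The adjusted p was 0.25 for each of these motifs (exact sign-flip test). The same regions were ranked in every library, so a direction seen in 4 of 4 libraries does not measure the spread between regions. For CTCF the direction followed the replicate number and not IL-4. With a match the median rank was 32.3 in iTreg+PBS replicate 1 and 31.9 in iTreg+IL-4 replicate 1, but 39.5 and 43.4 in the replicates 2, whereas without a match it lay between 37.7 and 41.5.

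Gene-end regions were also compared between conditions with and without the STAT motif. With 2 libraries against 2, the exact permutation test cannot give a p below 0.333, so it could not decide a difference in median rank. The motif stood in 56 of the 876 regions (6.39%, interval 4.96 to 8.21%), near the 6.45% of other distal regions, and 33 of the 56 were called in all 4 libraries. Their median rank was 29.3 and 40.4 in the iTreg+PBS libraries and 42.8 and 41.4 in the iTreg+IL-4 libraries (exact permutation p = 0.333, adjusted p = 1 over 12 motifs), so that only iTreg+PBS replicate 1 stood apart in this median. Region by region, 12 of the 33 (36.4%) ranked higher in both iTreg+IL-4 libraries and 0 ranked lower. With same-numbered libraries paired in the replicate block, 18 of the 33 were higher and 3 lower in both pairs, against 166 and 132 of all 511 shared regions. Without the motif 79 of 478 (16.5%) ranked higher and 63 (13.2%) lower, and the difference between these shares was not tested. The median difference was 6.52 points with and 0.50 points without the motif, and the difference was above 0 in 25 of the 33 regions. Between conditions, matches of GATA, IRF and TCF had the same p (exact permutation test, 0.333). With an IRF match 10 of 36 shared regions (27.8%) ranked higher and 4 lower. With a GATA match these were 7 and 4 of 42, and with a TCF match 13 and 11 of 75.

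The spacing TTCNNNGAA, used as a control for the number of bases between the arms, gave a median difference of -0.45 points over 63 regions. Of these, 8 were higher and 9 lower. Whether STAT factors also bind this spacing was not tested, so it compares spacings and is no sequence known to be free of STAT binding. The same pattern was seen outside gene ends: of 1690 other distal regions with the STAT motif, 27.7% ranked higher and 8.11% lower, against 14.2% and 12.8% of those without it. Nothing in it is thus particular to gene ends. In other distal regions with a GATA match, 22.4% ranked higher and 10.2% lower, so the STAT motif was not the only one with such a split. Ranked by height, 13 of the 33 were higher and 0 lower, against 13.7% and 12% of all regions called in all 4 libraries. Leaving out each library in turn gave between 14 and 25 higher and between 4 and 7 lower, where 3 libraries overlap less often by construction. The shared regions were found anew for each set of 3 libraries, so these counts are not out of 33. Shares over all regions were not computed for them.

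**Figure D5:**
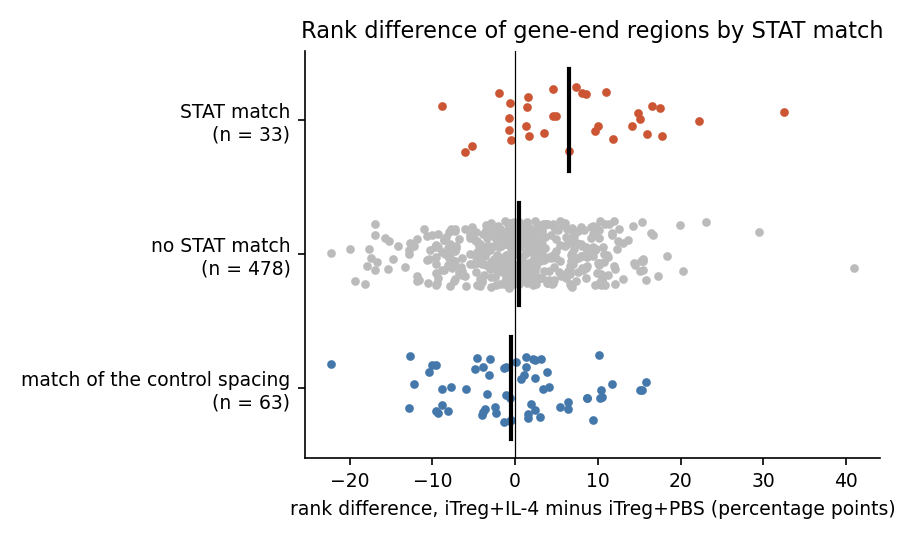
Points are gene-end regions called in all 4 libraries, placed by the rank difference (iTreg+IL-4 mean minus iTreg+PBS mean, in percentage points) and grouped by the motif in their central 200 bases, and thick bars mark medians. With the STAT motif the points are shifted to the right (median 6.52), and without it (0.50) or with the control spacing (-0.45) they centre near 0.

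The 12 regions that held the STAT motif and ranked higher with IL-4 were named after their values were seen. They were those of Vmn2r97, Thsd7a, Pex26, Polr3g, Mfhas1, Vmn2r95, Samd7, Bmp10, Arvcf, Habp2, Dlk2 and Tbc1d30. Pex26, a factor of peroxisome assembly, ranked at 41.9 and 55.4 without and at 66.7 and 66.2 with IL-4. Polr3g, a subunit of RNA polymerase III, ranked at 16 and 25 against 39 and 37. Samd7, a protein of photoreceptors, held the motif at 2 places in its window and ranked at 65.9 and 66.9 against 83.2 and 79.8. Bmp10, a growth factor of the heart, ranked at 72.3 and 66.6 against 86.2 and 81. For 5 of the 12 genes (41.7%), namely Vmn2r97, Vmn2r95, Thsd7a, Samd7 and Bmp10, no promoter peak was called in any library, against 9.2% of the shared gene-end regions as a whole. Since Vmn2r97 and Vmn2r95 share their sequence, they are not independent of each other.

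The rule that set gene ends apart from start sites drew a line at 2.5 kb. Just inside it lay the regions of Abhd17a and Selp, at 2513 and 2521 bases from the nearest start site, and just outside it lay that of Trim67, at 2491 bases. The median distance of the gene-end regions was 7608.5 bases, 261 of them lay within 5 kb, and for 413 (47.1%) the nearest start site was that of the gene whose UTR they occupied.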

How the data were processed

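ATAC-seq libraries of iTreg+PBS (n = 2) and iTreg+IL-4 (n = 2) cells were grouped by their labels. The authors sequenced them on the BGISEQ-500 platform, mapped read pairs to mm10 with Bowtie2 2.2.5 and called peaks in each library with MACS2 2.1.2. The submitters' processing notes also name bedtools 2.16.2. The caller's settings, the shift of transposase insertions and the removal of duplicate and mitochondrial reads are not given in the sources used here, and their effect on positions and values was not tested. The deposited lists have no column names. Their values were read, from the numbers, as −log10 of the q-value, which the authors' caller writes, and as the deposited pileup signal at the summit, neither scaled between libraries.

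Peaks were merged with at least 1 shared base and placed on GENCODE vM21 transcripts, excluding the stop codon from the 3′ UTR. A region in the UTRs of several transcripts was assigned to the longest. Windows of 200 bases were read from GRCm38 (RefSeq) with pysam 0.24.0 and samtools 1.23.1, and copies were searched with BLAST+ 2.17.0. Python 3.11.15, numpy 2.4.6 and scipy 1.17.1 were used. Tests were exact permutation tests over libraries, with Benjamini-Hochberg adjustment within each family. Wilson intervals are at 95%. Finding of regions was tested on simulated lists.

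The members, lists and motifs were chosen with earlier results of these data known, and the alternatives for the STAT motif were added after seeing the data. Named were the 10 shared regions of highest mean rank, up to 10 regions called only in each condition, the 5 largest rank differences each way, listed genes, the 5 widest regions, genes with most regions and the 2 regions on each side of the distance limit. Some regions that this rule names are not reported here. The same-numbered libraries deviated together (correlation 0.527 over the 511 shared regions), which 2 pairs cannot establish as pairing.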

Additional observations from a re-analysis of the deposited data

How the results depend on the processing

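Of 85 values recomputed under other settings, 54 kept within the range set for them, 30 moved and 1 reversed. Keeping the upper 50% of each list gave 374 gene-end regions, of which 20 were called only with IL-4 and 0 only without it, and 46 ranked higher and 26 lower with IL-4. With lists of equal length, 66% of the regions were called in all 4 libraries, 17 only with IL-4 and 10 only without it. Ranked by height, the median difference was -0.0529 points, and ranked among all peaks of a list it was 5.76 points and 21 regions were lower with IL-4. In the replicate block, 166 regions were higher and 132 lower in both same-numbered pairs, and the counts of regions called in only 1 condition (34 and 5) and the median difference (1.55) were unchanged by construction. Leaving out each library gave between 725 and 856 regions, of which 65.9 to 76.1% were called in all the libraries kept. Between 0 and 178 were called only with IL-4 and between 0 and 30 only without it, where 0 follows from asking for 2 libraries. Between 180 and 220 ranked higher and between 122 and 188 lower, and the median difference ran from 0.792 to 2.94 points. The larger counts follow from comparing fewer libraries. The causes of the other shifts were not tested. For the shortened lists and the sets without a library, shares over all regions were not computed, so the counts there are descriptions only. The median position in the UTR (0.522 to 0.535) and the median GC content (48.6 to 49%) moved little. Depth is not known, and its effect on the calls was not tested. The 3′ UTR regions called in 1 library stood at a median of the 7.43 percentile of their list. Those called in all 4 libraries stood at a median of the 65 percentile of the best of their lists, and taking the best list raises this value by construction.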
